A study of Mus musculus with 10 samples.

Results

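The 39 genes described here are interferon-stimulated genes and genes of antigen presentation by MHC class I, the surface proteins that show peptides from inside the cell to T cells. They were taken by gene symbol from a table of read counts for 56748 mouse genes, in which all 39 were found. Of these, 29 held enough reads to be tested, and 10 (Ifit3b, Oas1a, Oas2, Oas3, Oasl1, Mx1, Mx2, Rsad2, Gbp3 and Cxcl10) did not. None of the 29 passed an adjusted p of 0.05 in any comparison between the 3 groups of cells in edgeR's test with group as the only term. Several low-level members, with Oasl2, Isg15, Ifit1, Usp18 and Cmpk2 at their head, had more reads in every library of Fsk-treated cells than in any DMSO library of the same reporter. Of these, Oasl2, Ifit1 and Cmpk2 reached the read minimum for testing only through the Fsk libraries. Among the 10 members with a mean of at least 5 CPM, the Fsk and DMSO tdTomato+ libraries overlapped for B2m, Bst2, Tap1, Irf9, Ifi35, Irgm1 and Parp9, while Irf1 and Ifi27 were higher and Stat2 lower in every Fsk library. Of all genes tested, 9.01% were higher and 7.98% lower in every Fsk library than in any DMSO tdTomato+ library.

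Type I interferons bind a receptor on the cell surface whose kinases, JAK1 and TYK2, activate transcription factors that include STAT2. STAT2 joins IRF9 in a complex that binds the interferon-stimulated response element in the promoters of its target genes, and interferon gamma induces the factor IRF1. The products of the induced genes block viral replication, sense foreign nucleic acid, modify proteins and load peptides onto MHC class I, and many of them are also made at a low level without infection.

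Poly(A) RNA was sequenced from sorted reporter-positive cells of 3xR, a mouse embryonic stem cell line, on day 14 of culture. Its reporters are a Prg4-tdTomato, where Prg4 encodes the joint lubricant lubricin, and a Col2a1-egfp, where Col2a1 encodes the chief collagen of cartilage. The groups were Prg4-tdTomato+ cells from cultures given Fsk (3 libraries, replicates 1, 4 and 5), Prg4-tdTomato+ cells from cultures given the solvent DMSO (3 libraries, replicates 1, 3 and 5) and Col2a1-eGFP+ cells from DMSO cultures (4 libraries, replicates 1, 3, 4 and 5). All cells come from 1 line, and the labels give neither its genotype beyond the reporters nor the dose and length of the treatment. The abbreviation Fsk, often used for forskolin, is kept as the labels write it. Since nothing states that libraries within a group are independent cultures, each p-value measures only the spread between these libraries, which may be technical.

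Total counts ran from 15355459 to 18988782 in Fsk tdTomato+ libraries, from 18023599 to 20408696 in DMSO tdTomato+ libraries and from 15561217 to 20391156 in DMSO eGFP+ libraries. Levels are given as CPM, the reads of a gene scaled to a common library size by edgeR. Of the reporter genes, Col2a1 had 53.6, 19.7 and 27.5 CPM in Fsk tdTomato+, 187, 390 and 82.0 CPM in DMSO tdTomato+ and 838, 2992, 983 and 1910 CPM in DMSO eGFP+ cells, in the order of the replicates. Prg4 stayed at or under 2.55 CPM in all 10 libraries and did not mark the tdTomato+ cells. The 15 macrophage and leukocyte markers examined summed to 11.5 to 24.7 CPM in Fsk tdTomato+, 35.2 to 120 CPM in DMSO tdTomato+ and 29.5 to 141 CPM in DMSO eGFP+ libraries. Of these markers, Tyrobp and C1qb had 0 reads in every library and 8, these included, had under 10 reads in every library, while Cd68 had 18.4, 20.1 and 7.48 CPM in Fsk tdTomato+ and 58.8, 115 and 31.9 CPM in DMSO tdTomato+ libraries. The sums were lower in every Fsk library than in any DMSO library, but they mostly follow Cd68. Its mean over the 10 libraries was 54.4 CPM, and that of Cd14, the next marker by level, was 3.50 CPM. In Fsk against DMSO tdTomato+ cells, 2 of the 5 tested markers had a positive log2 fold change and 3 a negative one. The part of these markers in the results was not tested.

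Of the 39 members, 30 have a promoter window of 250 bases before to 50 bases after a start site in RefSeq. The core of the interferon-stimulated response element, GAAA, any 2 bases and GAAA, was searched on both strands with overlapping matches counted. It was found in 16 of these 30 members (53.3%), against 1079 of the 27025 genes with a window (3.99%). Among tested genes, it was found in 10 of 23 members (43.5%) and in 382 of 11252 genes (3.39%). A match describes the letters of the window and is not evidence that a factor binds there. Stretches are shown for the 4 most abundant tested members whose matches lie before the start site, in a stretch outside the annotated exons of the gene. Irgm1 also holds the motif and was more abundant than Isg15, but its stretch did not meet this rule. Without the condition on start site and exons, Irgm1 would be shown in place of Isg15. The stretch of Isg15 was chosen after its values were seen. The groups overlapped for B2m and Bst2. Fsk tdTomato+ libraries all lay below the DMSO tdTomato+ libraries for Stat2 and all above them for Isg15. Capitals mark the bases covered by the motif on either strand, and each stretch is written from 5′ to 3′ on the strand of its gene, from RefSeq on GRCm38.p6. They lie at chr2:122147513-122147592 on the plus strand for B2m, chr8:71537555-71537634 on the minus strand for Bst2, chr10:128270248-128270327 on the plus strand for Stat2 and chr4:156200846-156200925 on the minus strand for Isg15.
B2m: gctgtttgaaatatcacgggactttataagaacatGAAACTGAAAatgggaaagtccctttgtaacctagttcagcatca
Bst2: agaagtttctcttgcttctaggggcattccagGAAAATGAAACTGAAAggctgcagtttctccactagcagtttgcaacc
Stat2: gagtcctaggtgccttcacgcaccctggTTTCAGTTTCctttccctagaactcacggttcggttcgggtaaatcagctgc
Isg15: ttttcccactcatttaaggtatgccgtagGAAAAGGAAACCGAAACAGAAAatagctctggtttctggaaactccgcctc

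The Isg15 stretch holds 3 overlapping matches, that of Bst2 2, and those of B2m and Stat2 1 each. In Stat2 the match is read on the opposite strand.

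Per kilobase of annotated exon, the levels of the members spanned several orders of magnitude. B2m, the invariant light chain of MHC class I, stood first at 477 CPM per kb over the 10 libraries, followed by Bst2, a membrane tether that holds budding virus, at 31.5, and Ifi27 at 30.0. Ifi35 had 8.32, Isg15 4.57 and Tap1 4.25 CPM per kb. Irf9, Irf1, Stat2, Irgm1 and Parp9 lay between 3.29 and 1.29, and the other 28 members were under 1 CPM per kb. At the bottom, Oas2 had 0.00765 CPM per kb. The order of neighbours such as Bst2 and Ifi27 is not a difference beyond their spread, since Bst2 ranged from 14.3 to 56.4 and Ifi27 from 6.38 to 67.9 CPM per kb across libraries.

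**Figure D1:**
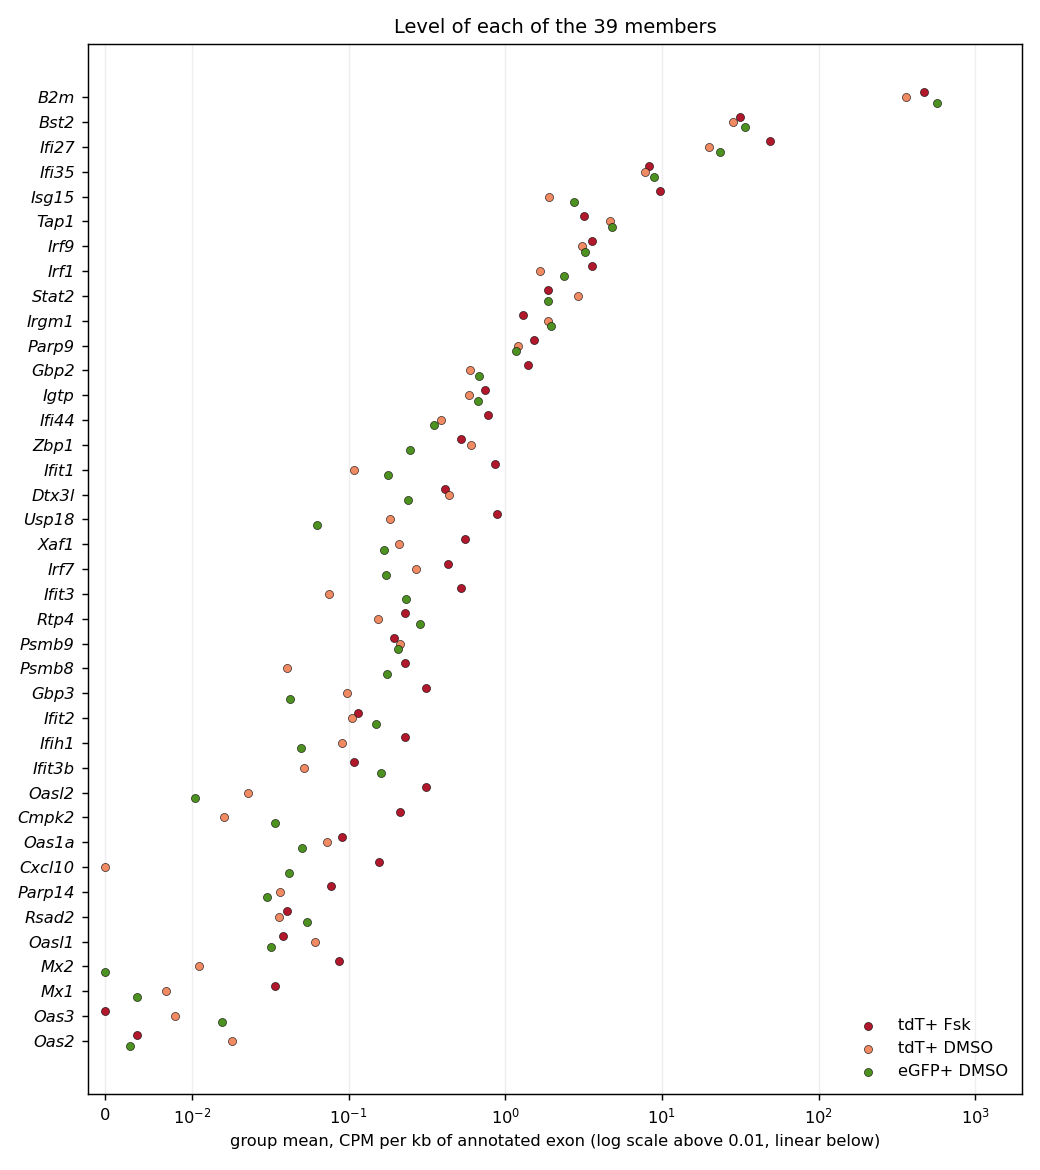
Mean level of each of the 39 members in Fsk tdTomato+, DMSO tdTomato+ and DMSO eGFP+ libraries, in CPM per kb of annotated exon on an axis that is logarithmic above 0.01 and linear below. B2m stands at 471, 361 and 569 CPM per kb in these groups and Bst2, the next member over all libraries, at 31.7, 28.5 and 33.7 CPM per kb.

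The 10 members too low to test were at 0 or few reads in most libraries. They include the oligoadenylate synthetase genes Oas1a, Oas2 and Oas3, whose products make the activator of the RNA-degrading enzyme RNase L, the related Oasl1, and both Mx genes, whose GTPases trap viral nucleocapsids. Mx2 had 5, 6 and 6 reads in Fsk tdTomato+, 0, 0 and 3 in DMSO tdTomato+ and 0 in all 4 DMSO eGFP+ libraries, and it is annotated as a polymorphic pseudogene. Cxcl10, a chemokine that attracts activated T cells, had 4, 4 and 12 reads in Fsk tdTomato+, 0 in each DMSO tdTomato+ library and 0, 0, 4 and 3 in DMSO eGFP+ libraries. Gbp3, a guanylate-binding protein gene, had 4, 33 and 19 reads in Fsk tdTomato+, 6, 7 and 7 in DMSO tdTomato+ and 5, 0, 0 and 4 in DMSO eGFP+ libraries. For Mx2 and Cxcl10 every Fsk library exceeded every DMSO tdTomato+ library, at counts where a few reads decide the order. Rsad2, the gene of viperin, had 7, 0 and 2 reads in Fsk tdTomato+, 0, 6 and 4 in DMSO tdTomato+ and 0, 10, 4 and 0 in DMSO eGFP+ libraries, so its groups overlapped. Ifit3b, Oas1a, Oas2, Oas3, Oasl1 and Mx1 had at most 12 reads in any library.

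Fsk was compared with DMSO in tdTomato+ cells, which asks what the treatment does to these genes within 1 reporter population. With edgeR and adjustment over all 16169 genes, 0 of the 29 tested members passed 0.05, in a comparison in which 92 genes (0.569%) did, with 0.297% of all genes higher and 0.272% lower in Fsk. An unadjusted p under 0.05 was reached by 5 members, Irf1, Ifit1, Oasl2, Isg15 and Ifi27, all higher in Fsk (5% of all genes were higher and 10.4% differed either way at that level). DESeq2, which called 566 genes in all, called 3 of these, Irf1, Oasl2 and Isg15, with adjusted p from 0.02 to 0.0263. No member was among the 74 genes that limma-voom called. The libraries of the groups did not overlap for 9 members that were higher in Fsk (9.01% of all genes) and for 1 that was lower (7.98% of all genes). A positive log2 fold change was seen in 23 of the 29 and in 48.3% of all genes, and the median was 0.68 against -0.03 over all genes. With the replicate number as a block in the fit, 19 of the 29 were positive, as they were without Fsk replicate 4. Ifit1, Oasl2 and Cmpk2 were tested only because the 3 Fsk libraries reached the read minimum, so a higher level in Fsk was a condition of their being counted.

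The members are also described by level, with a split chosen after the data were seen. The 10 members with a mean of at least 5 CPM had a median log2 fold change of 0.18 in Fsk against DMSO, where all genes at that level had 0.00. The 19 tested members under 5 CPM had a median of 1.25, where all genes at that level had -0.13. With the replicate number as a block, these member medians were -0.11 and 1.32, in that order. The set under 5 CPM holds Ifit1, Oasl2 and Cmpk2, whose testing required a high level in Fsk. It also holds Ifit3, Parp14 and Psmb8, whose testing required Fsk and DMSO libraries together. The medians therefore do not show a dependence on level. In bulk libraries, more or fewer cells of a type and more or less RNA per cell cannot be told apart.

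**Figure D2:**
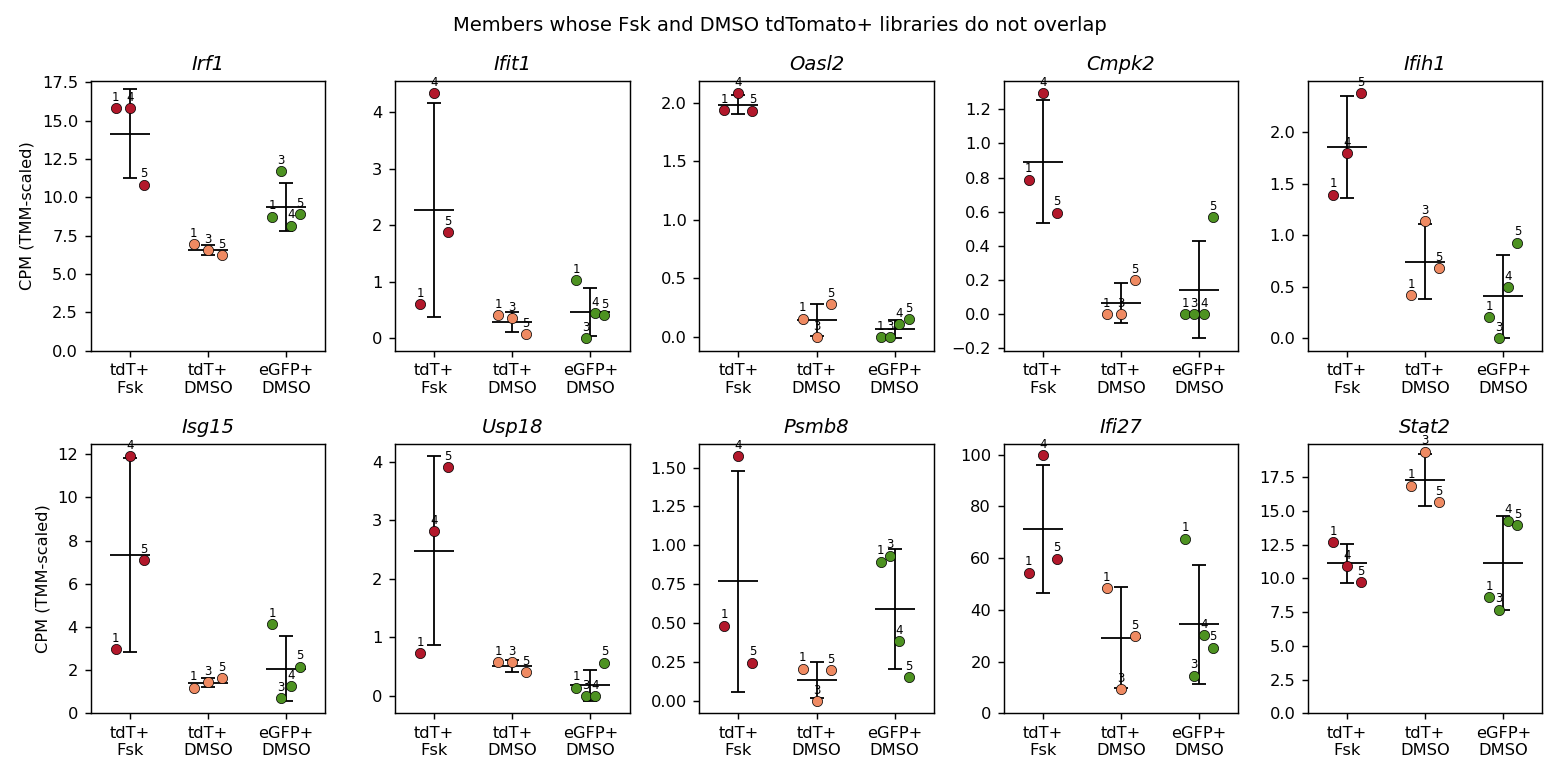
Level in CPM of the 10 members whose Fsk tdTomato+ libraries did not overlap the DMSO tdTomato+ libraries, with each library as a point labelled by its replicate number, the group mean as a long bar and 1 SD on either side as whiskers, and the DMSO eGFP+ libraries at the right. Stat2 is the 1 gene lower in Fsk, at 9.75 to 12.7 CPM against 15.7 to 19.4 CPM in DMSO tdTomato+ cells, and Isg15, Ifit1 and Ifi27 have replicate 4 well above the other Fsk libraries.

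The signalling and transcription factors went in different directions. Irf1 (chr11:53770014-53778374, plus strand), a factor induced by interferon gamma that binds promoters of antigen presentation genes, had 15.8, 15.9 and 10.8 CPM in Fsk tdTomato+ and 6.93, 6.57 and 6.23 CPM in DMSO tdTomato+ libraries. The lowest Fsk library was above the highest DMSO tdTomato+ library, and the means were 14.2 ± 2.88 CPM in Fsk and 6.58 ± 0.352 CPM in DMSO (SD, n = 3 each). Its log2 fold change was 1.11 ± 0.35 (SE), with an adjusted p of 0.223 by edgeR. Irf1 shares 135 annotated exon bases with Gm17334 on the opposite strand.

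Stat2 (chr10:128270559-128292849, plus strand), a subunit of the complex with IRF9, had 12.7, 10.9 and 9.75 CPM in Fsk tdTomato+ and 16.9, 19.4 and 15.7 CPM in DMSO tdTomato+ libraries. It is the only member whose Fsk libraries all lay under the DMSO tdTomato+ libraries, with a log2 fold change of -0.64 ± 0.36 (SE; edgeR, adjusted p = 0.588). Irf9, the DNA-binding subunit of that complex, had 15, 26.9 and 15.7 CPM in Fsk and 17.7, 13.4 and 18.7 CPM in DMSO, and these overlap. Irf7, which drives the later wave of interferon genes, had 2.0, 1.85 and 1.04 CPM in Fsk and 0.990, 0.983 and 1.08 CPM in DMSO, so 1 Fsk library fell within the DMSO range.

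Among the antiviral effectors, the members with the highest fold changes, Oasl2, Cmpk2 and Ifit1, had few reads. Ifit1, an RNA-binding protein that blocks translation of viral RNA, had 0.606, 4.33 and 1.88 CPM in Fsk and 0.417, 0.362 and 0.0798 CPM in DMSO, which is 10, 77 and 38 reads against 8, 7 and 2. Its log2 fold change was 2.98 ± 1.17 (SE; edgeR, adjusted p = 0.365). Ifit3, its partner in the same complex, had 3, 30 and 17 reads in Fsk and 6, 0 and 2 in DMSO, and the groups overlapped. Ifit2, of the same gene cluster on chromosome 19, had 3, 5 and 18 reads in Fsk and 6, 7 and 14 in DMSO, a log2 fold change of 0.14 ± 1.13 (SE). Ifit3 and Ifit3b are near-identical copies whose reads may have been split by the counting, so both values are uncertain.

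Oasl2 (chr5:114896936-114912234, plus strand), an oligoadenylate synthetase-like gene, was the most even of the members higher in Fsk. It had 1.94, 2.08 and 1.93 CPM in Fsk tdTomato+ and 0.156, 0 and 0.279 CPM in DMSO tdTomato+ libraries, which is 32, 37 and 39 reads against 3, 0 and 7. The log2 fold change was 3.68 ± 1.19 (SE; edgeR, adjusted p = 0.234), and the pooled reads gave a ratio of 12.6 with a 95% exact interval of 6.59 to 27 that covers counting error only. Cmpk2, a mitochondrial nucleotide kinase that lies beside Rsad2 on chromosome 12, had 13, 23 and 12 reads in Fsk and 0, 0 and 5 in DMSO (log2 fold change 3.52 ± 1.69, SE; edgeR, adjusted p = 0.5). Bst2, 1 of the 3 most abundant members, had 12.9, 46.6 and 26.2 CPM in Fsk and 33.4, 23 and 20.9 CPM in DMSO. Both the lowest and the highest of these 6 libraries were Fsk libraries, and the log2 fold change was 0.15 ± 0.49 (SE).

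ISG15 is a ubiquitin-like protein that is attached to other proteins, and USP18 is the protease that removes it and also dampens the interferon receptor. Isg15 (chr4:156199424-156200818, minus strand) had 2.97, 11.9 and 7.08 CPM in Fsk and 1.2, 1.45 and 1.64 CPM in DMSO, with means of 7.32 ± 4.48 CPM in Fsk and 1.43 ± 0.22 CPM in DMSO (SD, n = 3 each). The Fsk libraries were more spread than the DMSO tdTomato+ libraries, and every Fsk library was above every DMSO tdTomato+ library. The log2 fold change was 2.35 ± 0.70 (SE), and the adjusted p of 0.184 by edgeR was the smallest of any member in this comparison. Usp18 had 0.727, 2.81 and 3.91 CPM in Fsk and 0.573, 0.569 and 0.399 CPM in DMSO, with a log2 fold change of 2.26 ± 1.14 (SE; edgeR, adjusted p = 0.523). Replicate 1 was the lowest Fsk library for both genes, and for Usp18 it had 12 reads, against 11 in DMSO tdTomato+ replicates 1 and 3.

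The nucleic acid sensors and the PARP and DTX3L genes gave small or mixed values. Ifih1, which encodes the RNA sensor MDA5, had 1.39, 1.80 and 2.38 CPM in Fsk and 0.417, 1.14 and 0.679 CPM in DMSO, without overlap. Zbp1, a sensor of Z-form nucleic acid that triggers cell death, had 0.970, 0.843 and 3.71 CPM in Fsk and 0.678, 2.90 and 2.79 CPM in DMSO. Its log2 fold change of -0.20 ± 0.85 (SE) had a 95% interval from -2.04 to 1.63. Parp9 and Dtx3l encode partners of 1 complex and share 458 annotated exon bases on opposite strands, and whether strand was used in the counting is not given in the sources used here. Parp9 had 5.82, 9.44 and 7.18 CPM in Fsk and 7.45, 2.12 and 7.98 CPM in DMSO. Dtx3l had 1.82, 3.09 and 2.13 CPM in Fsk and 2.87, 0.879 and 3.75 CPM in DMSO. For both genes DMSO replicate 3 was the lowest of the 6 libraries and the groups overlapped.

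The GTPases that interferon gamma induces did not share a direction. Gbp2, which attacks the vacuoles of intracellular microbes, had 2.97, 5.56 and 2.08 CPM in Fsk and 3.39, 0.362 and 0.719 CPM in DMSO. Irgm1, a regulator of the immunity-related GTPases and of autophagy, had 4.67, 8.26 and 9.61 CPM in Fsk and 11, 7.50 and 13.9 CPM in DMSO, with a log2 fold change of -0.53 ± 0.45 (SE). Igtp, another GTPase of that family, had a log2 fold change of 0.33 ± 0.71 (SE) and shares 162 exon bases with Irgm2. None of the 3 separated the groups.

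Of the antigen presentation genes, B2m, Tap1 and Psmb9 overlapped between Fsk and DMSO tdTomato+ libraries, and Psmb8 did not. B2m (chr2:122147686-122153083, plus strand) had 131, 519 and 566 CPM in Fsk tdTomato+ and 282, 465 and 184 CPM in DMSO tdTomato+ libraries. Fsk replicate 1 was the lowest and the other Fsk libraries the highest of these 6, and the log2 fold change was 0.38 ± 0.56 (SE), with a 95% interval from -0.83 to 1.60. Tap1, a subunit of the transporter that carries peptides to MHC class I, had 19.5, 21 and 11.9 CPM in Fsk and 35.3, 18.4 and 22.3 CPM in DMSO. Its log2 fold change was -0.54 ± 0.38 (SE), and replicate 3 was the 1 DMSO library that fell within the range of Fsk. Psmb8, an immunoproteasome subunit beside Tap1 on chromosome 17, had only 8, 28 and 5 reads in Fsk and 4, 0 and 5 in DMSO. Its libraries did not overlap in CPM, at 0.248 in the lowest Fsk library and 0.208 in the highest DMSO tdTomato+ library, which is 5 reads against 4. An antisense gene, Gm20496, overlaps 498 of its exon bases. Psmb9, a second immunoproteasome subunit, had 10, 21 and 7 reads in Fsk and 32, 0 and 17 in DMSO, and its exons overlap those of Tap1 by 212 bases on the opposite strand.

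Of the other induced genes, Ifi27 (chr12:103434211-103440239, plus strand), a mitochondrial protein gene, had 54.4, 99.7 and 59.8 CPM in Fsk and 48.3, 9.36 and 29.9 CPM in DMSO. Every Fsk library was above every DMSO tdTomato+ library, and the log2 fold change was 1.29 ± 0.59 (SE; edgeR, adjusted p = 0.469). Ifi35 had 12.7, 17.6 and 12.3 CPM in Fsk and 15.4, 6.21 and 18.6 CPM in DMSO, and these overlap. Xaf1, a pro-apoptotic antagonist of XIAP, had 1.15, 3.93 and 2.72 CPM in Fsk and 0.834, 1.19 and 0.918 CPM in DMSO, a log2 fold change of 1.40 ± 0.68 (SE; edgeR, adjusted p = 0.505). Its lowest Fsk library lay just under its highest DMSO library. Ifi44, Parp14 and Rtp4 had log2 fold changes of 1.01, 1.06 and 0.59 and overlapped between the groups.

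**Figure D3:**
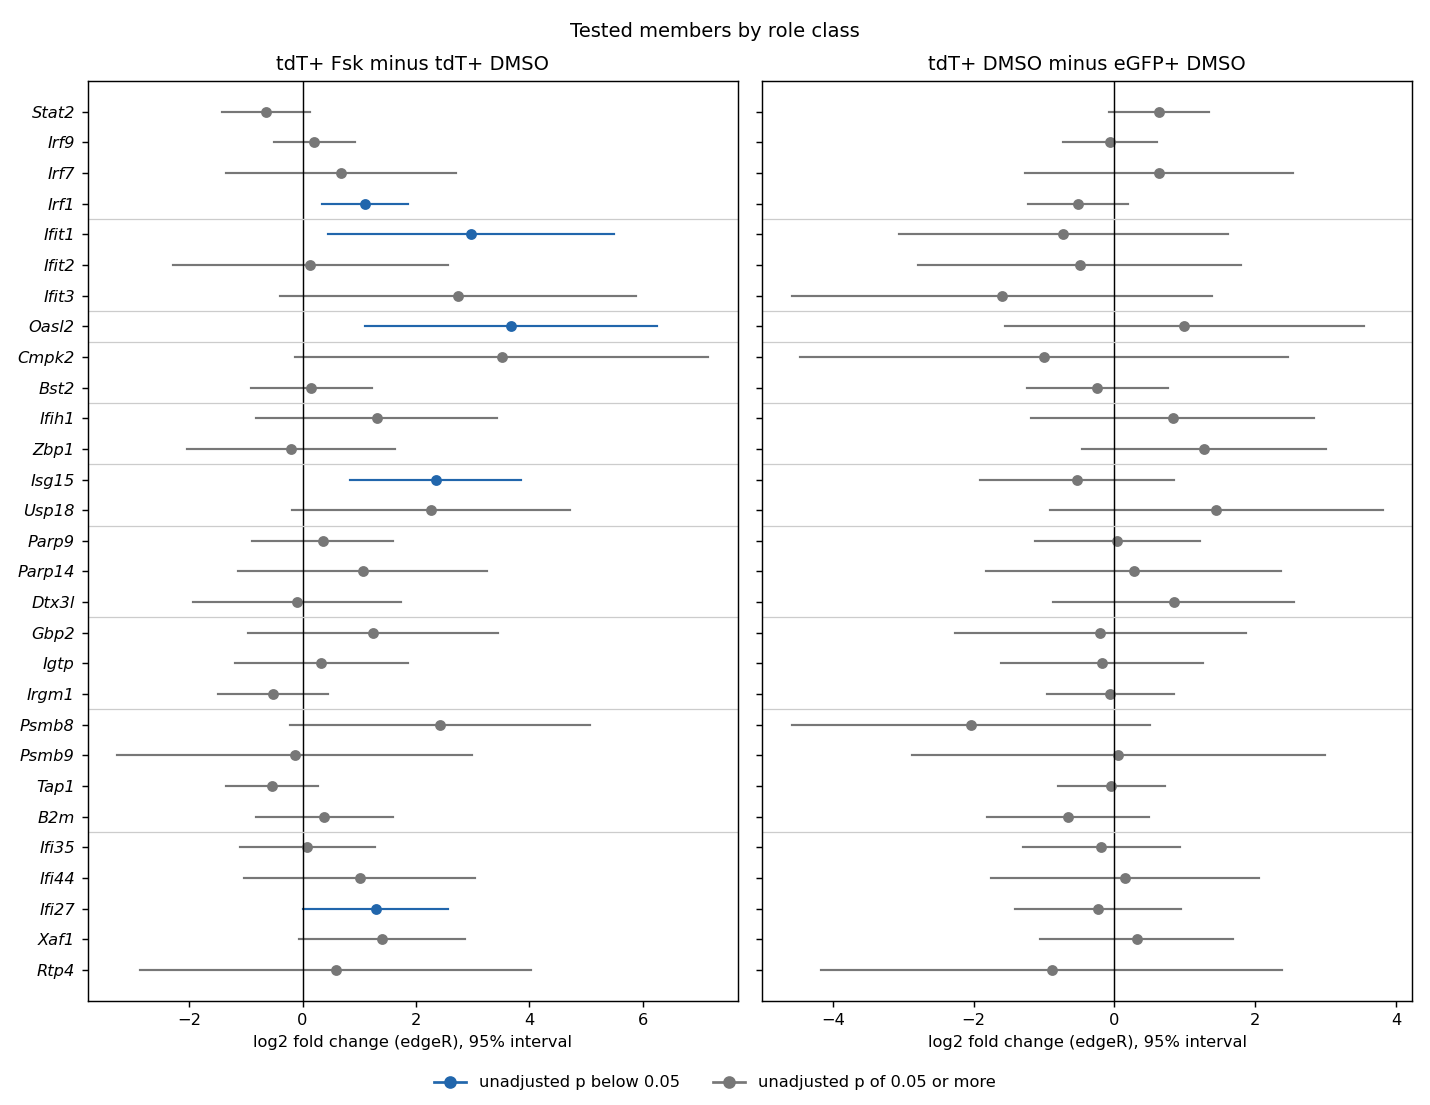
Log2 fold change by edgeR with its 95% interval for the 29 tested members, for Fsk against DMSO in tdTomato+ cells at the left and for tdTomato+ against eGFP+ DMSO cells at the right, ordered by role with lines between the role classes and with blue marking an unadjusted p under 0.05. Intervals at the left lie above 0 for Irf1, Ifit1, Oasl2, Isg15 and Ifi27 and are widest for genes with few reads, and all intervals at the right cover 0.

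The libraries of the Fsk group were uneven for these genes. Replicate 4 was the highest of all 10 libraries for 14 of the 29 tested members (48.3%), where it was the highest for 8.44% of all genes. Within the Fsk group it was the highest for 20 of the 29, against 32.1% of all genes, and replicate 1 was the lowest for 15, against 33.5%. Without replicate 4, the median log2 fold change of the members in Fsk against DMSO was 0.39, that of Isg15 1.82, that of Ifit1 2.11 and that of Ifi27 0.97. Oasl2 and Irf1 were nearly as high without it, with log2 fold changes of 3.65 and 1.03. Without DMSO tdTomato+ replicate 1 the median was 1.04, over the 30 members that reached the read minimum in that fit.

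**Figure D4:**
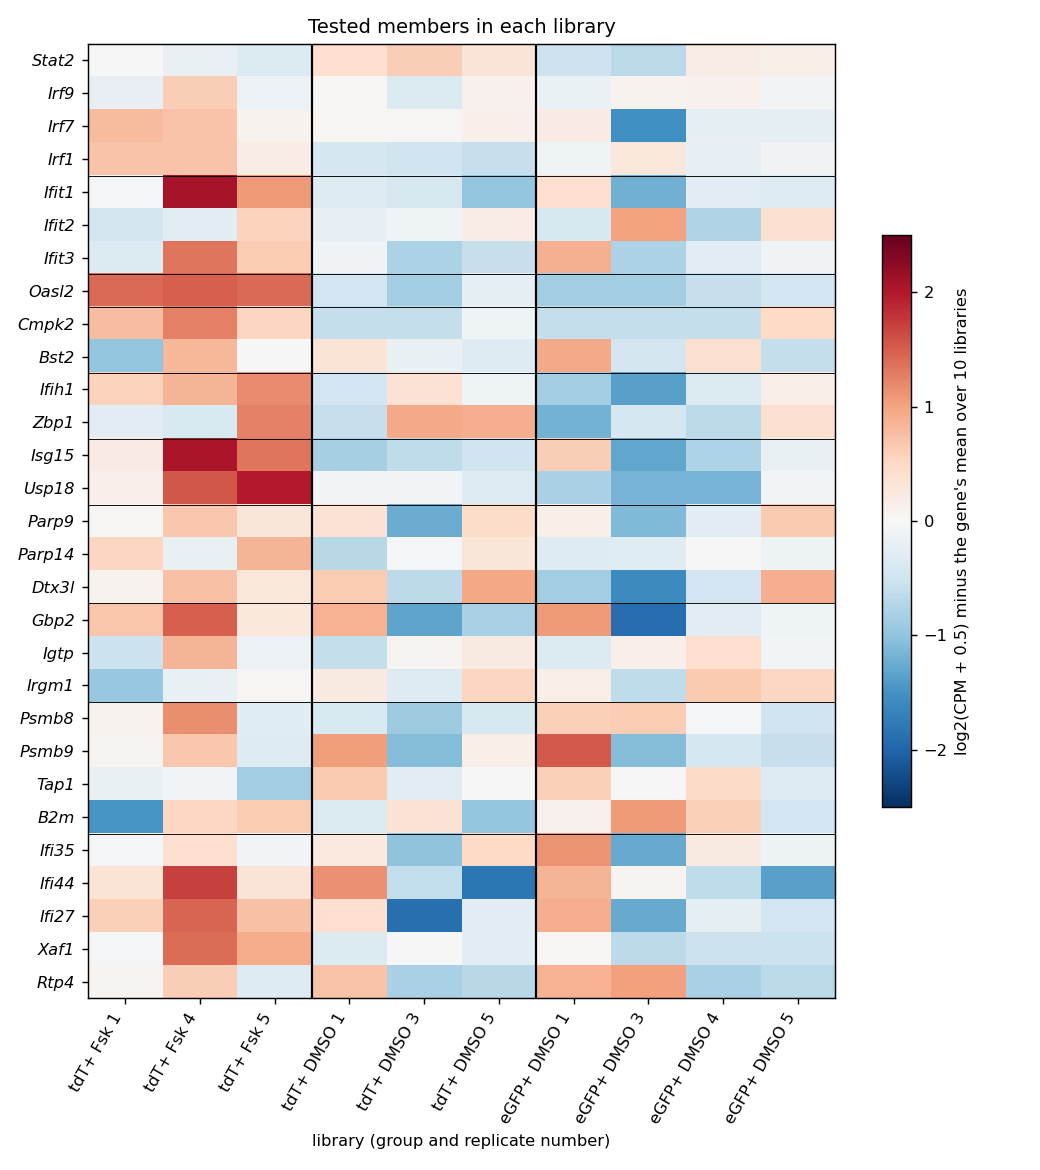
Level of the 29 tested members in each of the 10 libraries as log2 of CPM plus 0.5, minus the mean of the gene over the libraries, with genes ordered by role and groups separated by vertical lines. Fsk replicate 4 is the highest library for 14 of the 29 members, Oasl2 is high in all 3 Fsk libraries, and the replicate 3 libraries of both DMSO groups hold the lowest value of their group for 14 members each.

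The comparison of tdTomato+ with eGFP+ cells in DMSO asks whether the reporter populations differ in these genes without Fsk. With edgeR, 0 of the 29 members passed 0.05, as did 0 of all genes (0%), and 0 members had an unadjusted p under 0.05, where 221 genes (1.37%) did. DESeq2 and limma-voom called 0 members, and 13 and 0 of all genes. The libraries did not overlap for 1 member that was higher in tdTomato+ cells (1.6% of all genes), Stat2, and for 1 that was lower (1.15% of all genes), Irf1. Of the 29, 12 had a positive log2 fold change, against 51.9% of all genes, and the median was -0.07 against 0.02 over all genes.

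Stat2 had 16.9, 19.4 and 15.7 CPM in DMSO tdTomato+ and 8.61, 7.69, 14.3 and 14.0 CPM in DMSO eGFP+ libraries, a log2 fold change of 0.63 ± 0.33 (SE). Irf1 had 6.93, 6.57 and 6.23 CPM in DMSO tdTomato+ and 8.75, 11.7, 8.16 and 8.92 CPM in DMSO eGFP+ libraries, a log2 fold change of -0.51 ± 0.33 (SE). For both genes the DMSO tdTomato+ libraries thus lay outside the range of the other groups, Stat2 above and Irf1 below them. B2m had 282, 465 and 184 CPM in DMSO tdTomato+ and 391, 760, 546 and 261 CPM in DMSO eGFP+ libraries, and replicate 5 was the lowest and replicate 3 the highest in both groups. Bst2 had 33.4, 23 and 20.9 CPM in DMSO tdTomato+ and 50.9, 19.0, 34.8 and 17.1 CPM in DMSO eGFP+ libraries, where replicate 1 was the highest in both. Isg15 had 1.2, 1.45 and 1.64 CPM in DMSO tdTomato+ and 4.13, 0.719, 1.27 and 2.17 CPM in DMSO eGFP+ libraries, and Oasl2 had at most 0.279 CPM in any of the 7 DMSO libraries.

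Same-numbered libraries of the DMSO groups deviated from their group means together, with correlations over all genes of 0.492 to 0.649. With the replicate number as a block, 14 genes (0.0866%) passed 0.05 in tdTomato+ against eGFP+ DMSO cells, none of them a member, and the smallest adjusted p of a member was 0.835 (edgeR). The block turned the median of the members to 0.06 and the count of positive log2 fold changes to 17 of 29. The order of replicates 1, 3 and 5 was the same in both DMSO groups for 12 of the 29 members (41.4%), close to the 42.6% of all genes. Gbp2 shows such an order, at 3.39, 0.362 and 0.719 CPM in tdTomato+ and 3.99, 0.0719 and 1.5 CPM in eGFP+ replicates 1, 3 and 5. Psmb9 does too, at 32, 0 and 17 reads in tdTomato+ and 37, 0 and 4 reads in eGFP+ replicates 1, 3 and 5.

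Fsk tdTomato+ cells were also set against DMSO eGFP+ cells, which differ in both reporter and treatment. The Fsk libraries are those of the first comparison, and the eGFP+ libraries those of the second. With edgeR, 0 of the 29 members passed 0.05, where 220 genes (1.36%) did, with 0.643% of all genes higher and 0.717% lower, and 6 members had an unadjusted p under 0.05, all higher in Fsk (6.23% of all genes were higher and 11.9% differed either way). Oasl2, Ifit1 and Cmpk2, which were tested only through the Fsk libraries, are among the members counted here. So are Ifit3, Parp14 and Psmb8, which were tested only through Fsk and DMSO libraries together. The closest was Oasl2, at 1.94, 2.08 and 1.93 CPM in Fsk tdTomato+ and 0, 0, 0.110 and 0.155 CPM in DMSO eGFP+ libraries, with a log2 fold change of 4.67 ± 1.15 (SE; edgeR, adjusted p = 0.0716). DESeq2 (adjusted p = 0.00179) and limma-voom (adjusted p = 0.0389) called Oasl2, as did edgeR without the read minimum (adjusted p = 0.0103) and on these 2 groups alone (adjusted p = 0.0372). In the same order, these settings called 798, 181, 800 and 266 genes in all in this comparison.

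Usp18 had 0.727, 2.81 and 3.91 CPM in Fsk tdTomato+ and 0.138, 0, 0 and 0.567 CPM in DMSO eGFP+ libraries, a log2 fold change of 3.71 ± 1.11 (SE; edgeR, adjusted p = 0.145), and DESeq2 (adjusted p = 0.0132) and edgeR without the read minimum (adjusted p = 0.0186) called it. Without eGFP+ replicate 5, the highest of the DMSO eGFP+ libraries for this gene, edgeR called Usp18 with a log2 fold change of 5.62 and an adjusted p of 0.03. The libraries did not overlap for 4 members, Oasl2, Cmpk2, Ifih1 and Usp18, all higher in Fsk (6.59% of all genes), and for 0 members that were lower (5.16% of all genes). Irf1 was between: its Fsk libraries, at 15.8, 15.9 and 10.8 CPM, overlapped the DMSO eGFP+ range, whose highest library had 11.7 CPM. B2m, Bst2, Tap1, Irf9 and Ifi35 had log2 fold changes between -0.58 and 0.14, and Stat2 one of -0.01 ± 0.33 (SE). Of the 29, 20 had a positive log2 fold change, against 49.3% of all genes, and the median was 0.75 against -0.01 over all genes.

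The members were also described by the motif, for Fsk against DMSO in tdTomato+ cells, where 48.3% of all genes had a positive log2 fold change and 9.01% did not overlap and were higher. Of the 10 tested members with the motif in a window, 8 had a positive log2 fold change, 3 did not overlap and were higher, and the median was 0.82. Of the 13 with a window and no match, 10 had a positive log2 fold change, 4 did not overlap and were higher, and the median was 0.68. These counts hold Ifit1, Oasl2 and Cmpk2, tested only through the Fsk libraries, and Ifit3 and Psmb8, tested only through Fsk and DMSO libraries together. Oasl2, Irf1, Cmpk2 and Psmb8 are among those with no match, which says only that these letters are absent from the window. Bst2 and B2m, whose stretches hold the motif, overlapped between the groups, and Isg15, with 3 matches, did not.

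The genes upstream of the members were examined as lists chosen for their place in the pathway. None of the 15 interferon genes could be tested. Ifnb1 had 0 reads in every library, and the 15 together summed to at most 8 reads in a Fsk tdTomato+, 10 in a DMSO tdTomato+ and 14 in a DMSO eGFP+ library. The sum therefore allows no statement on a difference in interferon RNA at this depth. Ifnar1, a chain of the type I receptor, had 56.2, 53.4 and 43.1 CPM in Fsk and 47.0, 38.5 and 56.8 CPM in DMSO. Jak1, the kinase that serves both interferon types, had 120, 125 and 103 CPM in Fsk and 127, 141 and 81.6 CPM in DMSO, and both genes overlapped. In Fsk against DMSO tdTomato+ cells, edgeR called 0 of 7 genes that damp the signal and 0 of 14 tested nucleic acid sensing genes. None of these had an unadjusted p under 0.05, where 10.4% of all genes did and 0.569% were called. A positive log2 fold change was seen in 1 of the 7 (median -0.17) and 12 of the 14 (median 0.28), against 48.3% of all genes. With the replicate number as a block, 1 of the 7 and 8 of the 14 were positive. Sting1, the adaptor for cytosolic DNA, had 36.5, 82.5 and 39.7 CPM in Fsk and 34.2, 9.21 and 49.4 CPM in DMSO.

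Of 15 tested further genes of the MHC class I pathway, 0 were called in Fsk against DMSO and 1 had an unadjusted p under 0.05 by edgeR. Their median log2 fold change was 0.37 and 11 were positive, where 10.4% of all genes had such a p and 48.3% were positive. The endoplasmic reticulum chaperones Pdia3 and Calr, which help to fold MHC class I, led this list by level, with log2 fold changes of 0.30 ± 0.49 and 0.42 ± 0.44 (SE). Of 31 tested further interferon-induced genes, 0 were called and 3 had an unadjusted p under 0.05 by edgeR, all higher (5% of all genes). Of the 31, 23 were positive (48.3% of all genes) and the median was 0.47. They include Iigp1, which reached the read minimum only through the Fsk libraries. These lists were chosen with earlier results of these data known. The abundant Ly6e had 469, 202 and 131 CPM in Fsk and 260, 53.6 and 146 CPM in DMSO, and Ifitm2, a membrane protein that blocks virus entry, had 209, 296 and 141 CPM in Fsk and 157, 106 and 119 CPM in DMSO. Both overlapped.

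Of the 31 tested genes of that list, edgeR with group as the only term called 2 higher in Fsk tdTomato+ against DMSO eGFP+ cells. These were Lgals9 and Iigp1, where 0.643% of all genes were called higher. With a library left out, each was called only without DMSO eGFP+ replicate 5. Lgals9 was also not called in this comparison by limma-voom, with at least 1 CPM in 3 libraries, or without both libraries numbered 3. Lgals9, the gene of the lectin galectin-9, had 11.8, 36.6 and 36.3 CPM in Fsk tdTomato+ and 1.79, 5.96, 4.36 and 8.51 CPM in DMSO eGFP+ libraries (log2 fold change 2.45 ± 0.55, SE; adjusted p = 0.0485). In DMSO tdTomato+ libraries it had 2.5, 4.66 and 7.07 CPM, against which the Fsk libraries had a log2 fold change of 2.57 ± 0.61 (SE, edgeR, adjusted p = 0.0951). DESeq2 called it there (adjusted p = 0.00186). So did edgeR without the read minimum (adjusted p = 0.000124), with the replicate block (adjusted p = 0.00285) and on these 2 groups alone (adjusted p = 0.0316). It was not called by limma-voom or with a library left out. Iigp1, an immunity-related GTPase gene, had 1.27, 1.97 and 1.68 CPM in Fsk tdTomato+ and 1 read in all DMSO eGFP+ libraries together (edgeR, adjusted p = 0.0281). It reached the read minimum only through the Fsk libraries, so a high level in Fsk was a condition of its being tested. The pooled reads gave a ratio of 109 with a 95% exact interval of 19.1 to 4350, for counting error only. In DMSO tdTomato+ libraries Iigp1 had 0.156, 0 and 0.120 CPM, and DESeq2 called it higher in Fsk against these (adjusted p = 0.0226). Like Oasl2, both genes were higher in every Fsk library than in any of the 7 DMSO libraries.

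The MHC class II pathway and the interferon-induced chemokines had 0 called genes by edgeR with group as the only term. In Fsk against DMSO tdTomato+ cells, 2 of 5 and 1 of 3 tested genes had an unadjusted p under 0.05 by edgeR, all higher (5% of all genes). The 2 class II genes were Cd74 and H2-Eb1, which reached the read minimum only with Fsk libraries counted. Of the 127 reads of H2-Eb1, 84 lay in 1 Fsk library. The median of the MHC class II list was -0.54 with 3 of its 5 genes negative. Without the read minimum edgeR called H2-Aa (adjusted p = 0.00065) and Ccl2 (adjusted p = 0.00149) higher in that comparison. H2-Aa, which did not reach the read minimum, ran from 0 to 5.30 CPM in Fsk tdTomato+ and had 0 CPM in DMSO tdTomato+ libraries. Of its 134 reads, 107 lay in 1 Fsk library, so its call rests on that library. In Fsk tdTomato+ against DMSO eGFP+ cells it then called Ccl2 higher (adjusted p = 5.65e-06) and H2-Ab1 lower (adjusted p = 0.00743). H2-DMa, which helps to load peptides on MHC class II, had 4.36, 7.25 and 6.14 CPM in Fsk tdTomato+ and 9.02, 10.8 and 11.3 CPM in DMSO tdTomato+ libraries. All its Fsk libraries lay under the DMSO tdTomato+ libraries (log2 fold change -0.80 ± 0.38, SE; edgeR, adjusted p = 0.493). H2-Ab1, a chain of MHC class II, had 12.7, 2.81 and 2.77 CPM in Fsk tdTomato+ and 12.9, 17.8 and 5.39 CPM in DMSO tdTomato+ libraries, and these overlap. Cd74, the invariant chain of MHC class II, had 0.485, 0.618 and 3.27 CPM in Fsk tdTomato+ and 0.104, 0.155 and 0.0798 CPM in DMSO tdTomato+ libraries. Its Fsk libraries all lay above the DMSO tdTomato+ libraries, with replicate 5 far above the others. Ccl2, a chemokine that attracts monocytes, had 18.3, 19.1 and 75.9 CPM in Fsk tdTomato+ and 13.6, 5.95 and 6.95 CPM in DMSO tdTomato+ libraries (log2 fold change 2.10 ± 0.64, SE; edgeR, adjusted p = 0.197). Replicate 5 was again the highest, and the groups did not overlap.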

How the data were processed

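The 39 members and the lists of pathway and marker genes were chosen with earlier results of these data known. The authors deposited 1 table of raw read counts per gene for the 10 libraries; all its values are whole. Per the labels, Trizol was used for RNA extraction. The submitters' processing notes name mm10 as the build. Which aligner and counting program were used, and whether strand was used, is not given in the sources used here. Coordinates and exon lengths come from GENCODE M21 (GRCm38) by gene identifier (all 39 members and 52125 of 56748 identifiers, 91.9%, matched), and promoter windows from RefSeq GRCm38.p6.

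The deposited counts were fitted with edgeR 4.0.16 (R 4.3.3): filterByExpr by group (16169 genes kept), TMM scaling, and a robust quasi-likelihood fit of all 10 libraries with group as the only term and 7 residual degrees of freedom, with Benjamini-Hochberg adjustment over all genes tested at 0.05. A standard error is the log2 fold change divided by the square root of F. CPM use TMM-scaled library sizes. Values in every library are given for the 2 most abundant tested members of each role class, for Stat2, Irf9, Irf7 and Irf1, and for members whose Fsk and DMSO tdTomato+ libraries do not overlap; other values were chosen after they were seen. Same-numbered DMSO libraries correlated at 0.492 to 0.649, each above 0.1, and pairs of different numbers at most at 0.177, so the numbers pair the DMSO groups. This rests on the correlations, because no label explains the numbers. No 2 libraries agreed within sampling noise (lowest chi-square per degree of freedom 55.7). The steps were tested on simulated data. Alternatives were DESeq2 1.42.0, limma-voom (limma 3.58.1), RLE scaling, other read minimums, the replicate block, 2 groups only, and each library left out. Chosen after seeing the data were the block on 3 DMSO pairs alone, both libraries numbered 3 left out, the split at 5 CPM and the Isg15 stretch. A result on 1 list of pathway genes is not reported here.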

Additional observations from a re-analysis of the deposited data

Results flagged for a closer look

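Cmpk2 had 0.567 CPM (11 reads) in DMSO eGFP+ replicate 5 and 0 in the other 3 DMSO eGFP+ libraries, so that 1 library stood apart from the rest of its group. This was the 1 such library among the 22 members examined in that group of 4, and chance marks about 1 in 20 groups. Without that library the log2 fold change of Cmpk2 in Fsk tdTomato+ against DMSO eGFP+ cells was 7.03, a fitted value against a group with 0 reads that is no bound. In DMSO tdTomato+ cells it was also replicate 5 that held the reads of Cmpk2, 5 against 0 and 0.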

How the results depend on the processing

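No member passed 0.05 in Fsk against DMSO tdTomato+ cells under any alternative but DESeq2 (3 members), and none in tdTomato+ against eGFP+ DMSO cells under any. In Fsk tdTomato+ against DMSO eGFP+ cells the count was 2 without a read minimum and by DESeq2, 1 by limma-voom, with the replicate block and with 2 groups only, and 0 to 1 with a library left out. Genes called in Fsk against DMSO tdTomato+ cells numbered 462 without a read minimum, 566 by DESeq2, 508 with the replicate block, 260 with 2 groups, 50 without both libraries numbered 3, and 22 to 75 with a library left out. For tdTomato+ against eGFP+ DMSO cells they were 18, 13 and 14 with the first 3 of these, 68 with the block on 3 DMSO pairs alone and 0 with a library left out; for Fsk tdTomato+ against DMSO eGFP+ cells 800, 798, 820 and 51 to 469. The member median of tdTomato+ against eGFP+ DMSO cells was 0.064 with the block, 0.047 without the libraries numbered 3 and -0.32 to 0.16 with a library left out. It was 0.39 to 1.04 in Fsk against DMSO tdTomato+ and 0.46 to 1.03 in Fsk tdTomato+ against DMSO eGFP+ cells with a library left out. The read minimum was applied anew in each such fit, so these medians cover 27 to 30 members. Same-numbered Fsk and DMSO tdTomato+ libraries correlated at 0.109 and 0.403, and those of different numbers at up to 0.312. With DMSO eGFP+ libraries, same numbers gave 0.0703, 0.101 and 0.443, and different numbers up to 0.258. These values do not settle whether the numbers pair the Fsk libraries, so the block on Fsk comparisons rests on a shared number. With that block, H2-Ab1 (-1.54, adjusted p = 0.0269) and Ccl2 (2.10, adjusted p = 0.0448) passed 0.05 in edgeR in Fsk tdTomato+ against DMSO eGFP+ cells. Lgals9 (2.54, adjusted p = 0.000982), Iigp1 (6.015, adjusted p = 0.0264) and Cd68 (-1.80, adjusted p = 0.00152) passed there too in edgeR. In Fsk against DMSO tdTomato+ cells, Lgals9 (2.53, adjusted p = 0.00285) and Cd68 (-1.89, adjusted p = 0.00288) passed in edgeR with the block.

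The following log2 fold changes changed sign, and the cause was not tested. In Fsk against DMSO tdTomato+ cells these were Ifit2 at -0.094 and Dtx3l at 0.069 by limma-voom; Irf9 at -0.0038, Irf7 at -0.018, Bst2 at -0.22, Zbp1 at 0.11 and Ifi35 at -0.38 with the replicate block; and Zbp1 at 0.091, Parp9 at -0.031 and Ifi35 at -0.25 without the libraries numbered 3. In tdTomato+ against eGFP+ DMSO cells these were Ifit2 at 0.22 and Parp9 at -0.022 by limma-voom, Irf9 at 0.050, Bst2 at 0.019, Gbp2 at 0.13, Irgm1 at 0.14, Tap1 at 0.074 and Ifi35 at 0.064 with the replicate block, Irf9 at 0.088, Ifit2 at 0.38, Ifih1 at -0.013 and Tap1 at 0.061 without the libraries numbered 3, and Parp9 at -0.049, Irgm1 at 0.15, Tap1 at 0.050 and Ifi35 at 0.000603 with the block on 3 DMSO pairs alone. In Fsk tdTomato+ against DMSO eGFP+ cells these were Stat2 at 0.00900 without a read minimum and 0.0086 by limma-voom, Ifit2 at 0.13 and Ifi35 at 0.12 by limma-voom, Ifit2 at 0.36 with the replicate block, and Ifit2 at 0.45 and B2m at 0.034 without the libraries numbered 3.

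With a library left out, the log2 fold changes that crossed 0 in Fsk against DMSO tdTomato+ cells ran from -0.39 to 0.51 for Bst2, -0.49 to 0.32 for Dtx3l, -0.26 to 0.39 for Ifi35, -0.80 to 0.51 for Ifit2, -0.11 to 0.37 for Irf9, -0.044 to 0.64 for Parp9 and -1.21 to 0.15 for Zbp1. In tdTomato+ against eGFP+ DMSO cells they ran from -0.47 to 0.12 for Bst2, -4.46 to 3.53 for Cmpk2, -1.64 to 0.63 for Gbp2, -0.81 to 0.31 for Ifi27, -0.50 to 0.32 for Ifi35, -0.88 to 0.29 for Ifit2, -0.16 to 0.066 for Irf9, -0.28 to 0.14 for Irgm1, -0.81 to 0.037 for Isg15, -0.25 to 0.44 for Parp9 and -0.36 to 0.14 for Tap1. In Fsk tdTomato+ against DMSO eGFP+ cells they ran from -0.58 to 0.15 for B2m, -0.64 to 0.28 for Bst2, -0.38 to 0.40 for Ifi35, -1.30 to 0.44 for Ifit2, -0.18 to 0.30 for Irf9, -0.68 to 0.81 for Psmb8 and -0.15 to 0.13 for Stat2.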
